A study of Mus musculus with 69 samples.

Results

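The comparison set p53KO-emiRFP cells against WT-emiRFP cells, both sorted from 144 h mosaic gastruloids, the last time point of the series, across every gene of the count table. It used 6 of the 69 RNA sequencing libraries, taken by their labels: 3 replicates of p53KO-emiRFP cells from WT+p53KO gastruloids and 3 of WT-emiRFP cells from WT+WT gastruloids. Of 55367 genes in the table, 19391 had enough counts for the test. All cells descend from E14Tg2A, a male mouse embryonic stem (mES) cell line. WT-emiRFP cells are a WT clone that carries a CAG-driven H2B-emiRFP670 transgene. The p53KO-emiRFP cells are 1 subclone of it, with a homozygous frameshift in exon 4 of Trp53, isolated under Nutlin-3a, a drug that stabilizes p53. Both were grown beside WT-mCherry cells, a sister WT clone with an H2B-mCherry transgene under the EF1α promoter, and both kinds of gastruloid received a pulse of the Wnt agonist CHIR99021 early in the protocol. The WT+WT gastruloids were seeded with 150 WT-emiRFP cells and the WT+p53KO gastruloids with 25 p53KO-emiRFP cells. Genotype, clone, seeding number, neighbours and gastruloid therefore changed together, and their parts in a difference cannot be told apart. Gastruloids were pooled for sorting, and the 3 replicates were experiments done at different times.

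p53 is a transcription factor that is kept low by the ubiquitin ligase Mdm2 and, when stabilized by stress, activates genes of cell cycle arrest, apoptosis and DNA repair. Gastruloids are aggregates of mES cells that elongate along an anterior to posterior axis. Their posterior end holds cells like those of the caudal epiblast, which renew under Wnt and Fgf signals and give rise to presomitic mesoderm and spinal cord, while presomitic mesoderm matures into somites. Hox genes are switched on in the order of their paralogue numbers as the axis extends.

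The 6 libraries held 47397767 to 57893507 counts, within the range of 26722541 to 72981570 over all 69, and no replicate pair agreed within sampling noise. Values below are normalized counts, that is counts divided by the size factor of their library. The fold changes are p53KO-emiRFP over WT-emiRFP from edgeR's quasi-likelihood test, with their standard error (SE), and a gene was called at an adjusted p under 0.05. A signed value in brackets beside a gene name is its log2 fold change at 144 h. The p values cover the spread between the 3 experiments. In the plane of the first 2 principal components of the 12 libraries of 144 h, the 3 p53KO-emiRFP libraries stood between 72.9 and 83.4 on the first component, which held 76.4% of the variance, and the 9 WT libraries between -42.1 and -5.

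Trp53 was measured first as a check of the genotype. It lies at chr11:69580359-69591873 on the + strand of GRCm38, and its exon 4 spans chr11:69587372-69587632. WT-emiRFP libraries held 19869, 18455 and 20019 normalized counts of Trp53, and p53KO-emiRFP libraries 1797, 1506 and 1560. The groups did not overlap, and the log2 fold change was -3.58 (SE 0.07, adjusted p = 1.18e-12). WT-mCherry cells of the same WT+p53KO gastruloids held 14611 on average. H2bc14, a histone H2B gene, is high in the emiRFP clones of this series. Its link to them rests on these libraries alone, so it is no independent check of the sort. H2bc14 had 6438, 7335 and 6112 normalized counts in WT-emiRFP cells and 5490, 5444 and 4934 in p53KO-emiRFP cells. Its mean was 84.8 in WT-mCherry cells from WT+WT gastruloids and 504 in those from WT+p53KO gastruloids. The latter value is above that of the other WT-mCherry cells, and the part of emiRFP cells or RNA in the WT-mCherry libraries was not tested.

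The promoters of 4 p53 targets are shown here because these genes fell in p53KO-emiRFP cells and hold a p53 decamer, the 10-base unit of a p53 binding site, which is searched by its name here and reads alike on both strands. Each line gives the 250 bases before a RefSeq start in GRCm38.p6, from 5′ to 3′ along the gene, with the decamer in capitals. Only windows with a match are shown, and a gene was counted below as holding the decamer if any of its windows did. They lie at chr17:29090729-29090978 (+) for Cdkn1a, chr11:40755287-40755536 (-) for Ccng1, chr10:117710759-117711008 (-) for Mdm2 and chr7:45466899-45467148 (-) for Bax.
Cdkn1a: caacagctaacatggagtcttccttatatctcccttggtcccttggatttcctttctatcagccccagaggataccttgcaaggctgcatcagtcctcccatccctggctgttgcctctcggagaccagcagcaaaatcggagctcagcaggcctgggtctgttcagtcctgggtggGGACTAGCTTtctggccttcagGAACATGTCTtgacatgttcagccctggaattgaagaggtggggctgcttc
Ccng1: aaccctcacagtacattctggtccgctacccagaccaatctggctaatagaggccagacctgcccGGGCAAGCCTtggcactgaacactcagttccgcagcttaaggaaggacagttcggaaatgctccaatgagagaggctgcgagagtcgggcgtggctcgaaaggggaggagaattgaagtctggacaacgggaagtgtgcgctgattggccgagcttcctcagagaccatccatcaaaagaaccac
Mdm2: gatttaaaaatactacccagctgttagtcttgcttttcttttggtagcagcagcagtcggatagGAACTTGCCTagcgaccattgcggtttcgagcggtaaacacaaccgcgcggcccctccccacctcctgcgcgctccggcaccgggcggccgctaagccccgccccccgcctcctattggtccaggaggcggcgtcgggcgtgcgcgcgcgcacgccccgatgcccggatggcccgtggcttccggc
Bax: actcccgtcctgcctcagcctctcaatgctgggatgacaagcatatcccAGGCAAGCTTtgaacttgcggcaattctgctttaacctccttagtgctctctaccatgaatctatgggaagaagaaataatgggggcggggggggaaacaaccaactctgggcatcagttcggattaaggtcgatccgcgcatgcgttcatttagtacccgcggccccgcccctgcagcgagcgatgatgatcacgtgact
The decamers were centred 180 bases before the start in Ccng1, 181 in Mdm2 and 196 in Bax, and the pair in Cdkn1a 68 and 46 bases before it. Of the 50 p53 targets listed, 37 had a window, and 13 of these (35.1%) held a decamer, against 974 of the 13186 tested genes with a window (7.39%) and 2341 of 32851 windows (7.13%) of all RefSeq promoters. The decamer was held by 10 of the 31 targets with a window that fell (32.3%) and by 3 of the 6 that did not (50%). A pair of decamers at most 13 bases apart, a full site, was present in Cdkn1a alone among the targets and in 21 of 32851 windows (0.0639%). A match is a description of the letters in this window, and sites elsewhere in these genes were not searched.

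At 144 h, 12675 of the 19391 genes were called (65.4%), 6438 higher (33.2%) and 6237 lower (32.2%) in p53KO-emiRFP cells. With an absolute log2 fold change of at least 1 as well, 5316 genes were called (27.4%), 2195 higher (11.3%) and 3121 lower (16.1%). The groups of 3 libraries did not overlap at 13840 genes (71.4%). As a measure of clone differences without the Trp53 lesion, WT-emiRFP and WT-mCherry cells of WT+WT gastruloids differed at 4616 genes (23.8%). The counts below are to be read against these shares, and the median log2 fold change of all genes tested was 0.007. Against WT-mCherry cells of the same gastruloids, p53KO-emiRFP cells differed at 12473 of 19391 genes (64.3%), 6750 higher and 5723 lower. The median there was 0.0473, and list counts against that reference are to be read beside these values. The tests against WT-mCherry cells of the same gastruloids did not use the pairing of the cells. Where 5 or fewer members of a list moved one way, most are named, some of them after their values were seen.

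**Figure D1:**
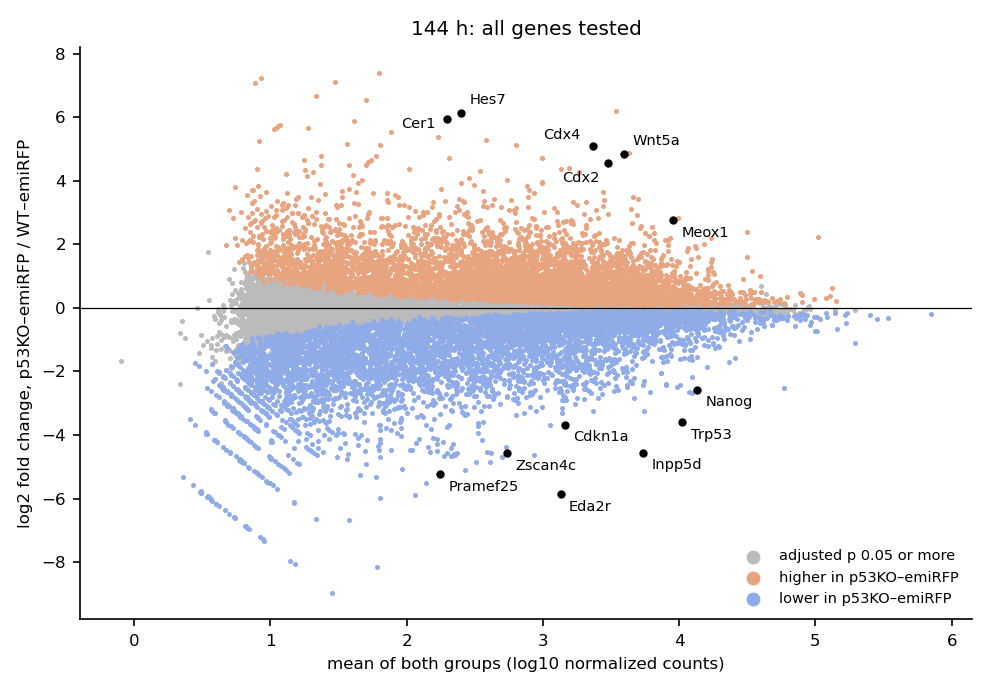
Log2 fold change of p53KO-emiRFP over WT-emiRFP cells at 144 h against the mean level of both groups (log10 of normalized counts), one point per gene tested, coloured by direction where the adjusted p was under 0.05. Black points are named genes, with Hes7 at 6.14 as the highest of them and Eda2r at -5.86 as the lowest.

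Most p53 targets were lower in p53KO-emiRFP cells. Of 50 targets 39 fell, 28 of them at least 2-fold, and 5 rose, with a median log2 fold change of -1.16. Eda2r, a receptor of the tumour necrosis factor receptor family on the X chromosome, fell the most of all genes named here. It had 2331, 2667 and 2949 normalized counts in WT-emiRFP cells and 63.7, 37.1 and 33.9 in p53KO-emiRFP cells, a log2 fold change of -5.86 (SE 0.16, adjusted p = 2.23e-11). Cdkn1a, which encodes the cyclin-dependent kinase inhibitor p21, had 2820, 2912 and 2366 in WT-emiRFP cells and 224, 206 and 205 in p53KO-emiRFP cells (-3.67, SE 0.12, adjusted p = 8.23e-11). No p53KO-emiRFP library reached the lowest WT-emiRFP library for either gene. Ccng1, a cyclin G gene whose promoter is shown above, had 9564, 9675 and 10501 against 1081, 1015 and 1059 (-3.24, SE 0.06, adjusted p = 1.07e-12). Phlda3, an inhibitor of Akt, fell by 2.89 on the log2 scale, Zmat3, an RNA-binding protein, by 1.79, and Gdf15, a stress-induced cytokine, fell by 3.02.

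Targets with roles in apoptosis did not all move in the same direction. Bax, a pore-forming protein of the mitochondrial membrane, had 3710, 3970 and 3434 normalized counts in WT-emiRFP cells and 1526, 1446 and 1511 in p53KO-emiRFP cells (-1.31, SE 0.08, adjusted p = 1.2e-08). Perp, a membrane protein, and Aen, a nuclease, also fell, the latter by 1.38. Bbc3, which encodes the BH3-only protein Puma, had 1716, 1539 and 1392 against 942, 890 and 878 (-0.78, SE 0.12, adjusted p = 4.54e-05). Pmaip1, which encodes Noxa, another BH3-only protein, went the opposite way, with 829, 897 and 1020 in WT-emiRFP cells and 1487, 1575 and 1670 in p53KO-emiRFP cells (0.78, SE 0.10, adjusted p = 6.5e-06). The other 4 targets that rose were Tnfaip8 (1.11), Ddit4 (0.48), Ddb2 (0.26) and Ppm1d (0.19). Ddit4 was at 0.0023 (adjusted p = 0.988) and Ppm1d at 0.14 (adjusted p = 0.116) against WT-mCherry cells of the same gastruloids, and Ppm1d was not called with TMM scaling either (adjusted p = 0.0566). Ddb2 was not called without the low-count filter (adjusted p = 0.0594). In the Bcl2 family, 4 of 15 tested members rose and 6 fell. Bcl2 itself, which blocks apoptosis, had a mean of 213 ± 30.4 (SD, n = 3) in WT-emiRFP and 830 ± 39.7 in p53KO-emiRFP cells (1.96, adjusted p = 7.71e-08), and Bmf, a BH3-only gene that opposes it, rose by 1.12. Bok (0.98) and Pmaip1 completed the 4. WT-mCherry cells from WT+WT gastruloids had 542 counts of Bcl2 on average, and that WT clone difference was called as well (-1.34 for WT-emiRFP over WT-mCherry, adjusted p = 9.32e-05).

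Genes of the p53 circuit itself fell too. Mdm2 had 8129, 8095 and 8311 normalized counts in WT-emiRFP cells and 3950, 3932 and 3751 in p53KO-emiRFP cells (-1.08, SE 0.04, adjusted p = 3.19e-10). Its relative Mdm4, which inhibits p53 at the protein level, fell by 0.88 on the log2 scale. Trp73, the p53 relative p73, went from a mean of 477 ± 23.8 to 47.5 ± 4.9 (-3.32, SE 0.11, adjusted p = 8.99e-11). Of the 6 genes of this list 4 fell, Trp53 included, and Ppm1d, a phosphatase that acts on p53, rose.

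**Figure D2:**
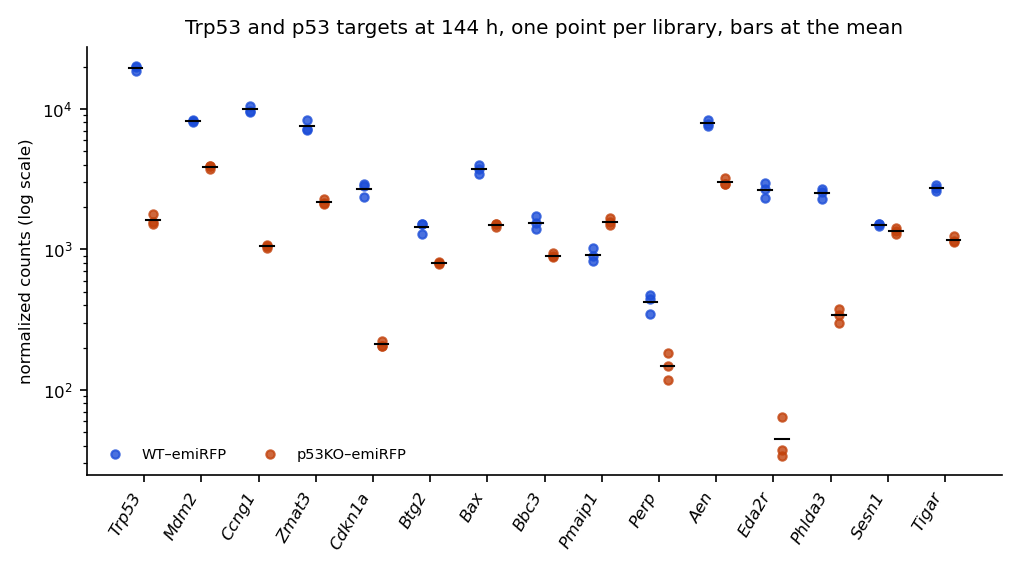
Normalized counts (log scale) of Trp53 and of the key p53 targets at 144 h, one point per library, WT-emiRFP in blue and p53KO-emiRFP in orange, with black bars at the means. The groups are apart for Eda2r, Cdkn1a, Ccng1 and Phlda3, lie closer together for Sesn1 (-0.15), and are inverted for Pmaip1 (0.78).

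The median of the p53 targets was also negative in the mES cells before aggregation, though Sesn1 had no called difference there (-0.03, adjusted p = 0.884). At 0 h the 2 clones differed in 1816 of 20209 genes (8.99%), and the median of the p53 targets was -0.83, against -1.02 at 120 h and -1.16 at 144 h. Eda2r stood at -7.38 (adjusted p = 1.58e-15) and Ccng1 at -3.74 (adjusted p = 2.69e-15) at 0 h. For Cdkn1a the difference was -2.18 at 0 h and -2.69 at 120 h, and it stood at -3.67 by 144 h, a tested change of -0.98 from 120 h (adjusted p = 0.00049). The difference did not widen steadily, since mean Cdkn1a counts were 2659 in WT-emiRFP against 89.2 in p53KO-emiRFP cells after 48 h, 15930 against 6135 after 72 h, then 5971 against 2182 after 96 h. Pmaip1 had no called difference at 0 h (-0.33, adjusted p = 0.234) and stood at 0.71 at 120 h. Of the 50 targets, 7 changed upward and 7 downward from 120 h to 144 h, where 10.3% of all 19982 genes of that test changed upward and 6.18% downward.

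Genes of the caudal epiblast rose in p53KO-emiRFP cells at 13 of 14 members, 11 of them at least 2-fold. Their median log2 fold change of 3.09 was the highest of the lineage lists. T, the gene of Brachyury and a marker of the primitive streak and tail bud, had 2674, 2527 and 2499 normalized counts in p53KO-emiRFP cells and 153, 120 and 99.1 in WT-emiRFP cells (4.37, SE 0.17, adjusted p = 2.32e-10). Cdx2, a homeobox factor of posterior identity at chr5:147300805-147307270, had 5487, 5912 and 5934 against 286, 242 and 217 (4.54, SE 0.12, adjusted p = 1.23e-11). The lowest p53KO-emiRFP library was above the highest WT-emiRFP library for both. Cdx4, another Cdx factor, had 4376, 4251 and 4913 against 146, 116 and 130 (5.11, SE 0.16, adjusted p = 5.62e-11), and Nkx1-2, a marker of neuromesodermal progenitors, rose by 4.39. The secreted signals of this region rose as well, Fgf8 by 2.99 and Wnt3a by 2.78. Cyp26a1, which degrades retinoic acid at the tail end, rose by 1.25, and against WT-mCherry cells of the same gastruloids it was at 0.18 without a call (adjusted p = 0.533).

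The WT-mCherry cells of the same WT+p53KO gastruloids lay between the groups for these genes. They held 464 normalized counts of T, 1172 of Cdx2 and 609 of Cdx4 on average, and WT-mCherry cells from WT+WT gastruloids 197, 325 and 317. H2bc14, which is high in emiRFP cells, was also higher in the former WT-mCherry cells, as given above. Against the WT-mCherry cells of the same gastruloids, the p53KO-emiRFP cells were still higher, by 2.47 for T and by 2.30 for Cdx2.

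The difference at these genes grew in the last day for some and not for others. Cdx2 went from 1.72 at 120 h to 4.54 at 144 h, a change of 2.82 (adjusted p = 1.19e-10), and T from 2.79 to 4.37, a change of 1.58 (adjusted p = 1.7e-05). Both clones had most T at 72 h, with means of 51831 ± 6454 in WT-emiRFP and 42853 ± 2119 in p53KO-emiRFP cells, which were 1590 ± 239 and 10996 ± 964 (SD, n = 3 each) after 120 h. By 144 h the means had come down to 124 ± 27.1 and 2567 ± 94.1. Wnt3a was at 3.37 at 120 h and Fgf8 at 2.62, and neither change to 144 h was called (adjusted p = 0.126 and 0.384). Of the 14 caudal epiblast genes 7 changed upward and 0 downward.

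**Figure D3:**
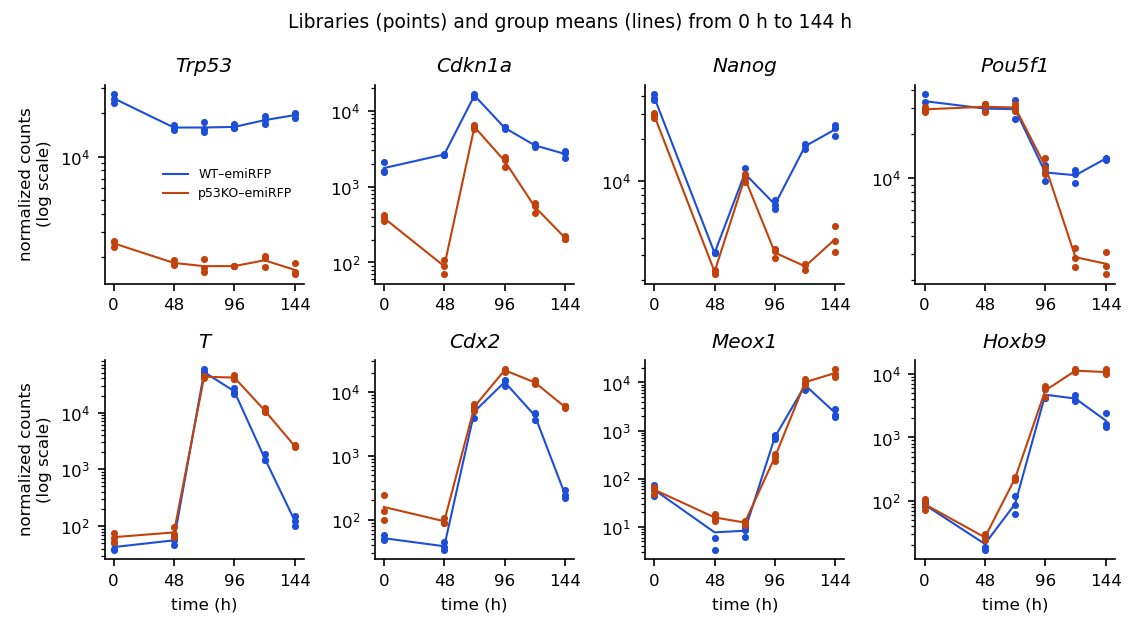
Normalized counts (log scale) of 8 genes against time from 0 h to 144 h in WT-emiRFP (blue) and p53KO-emiRFP (orange) cells, points for libraries and lines for the means of 3. At 144 h the lines are apart in every panel, with T, Cdx2, Meox1 and Hoxb9 higher and Trp53, Cdkn1a, Nanog and Pou5f1 lower in p53KO-emiRFP cells.

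Presomitic mesoderm genes rose at 10 of 12 members, all at least 2-fold, with a median of 2.93. Hes7, the oscillating repressor of the segmentation clock at chr11:69120404-69124055, showed the highest of the 10 largest rises. It had 453, 468 and 564 normalized counts in p53KO-emiRFP cells and 7.5, 7.3 and 6.1 in WT-emiRFP cells (6.14, SE 0.32, adjusted p = 1.98e-09). Tbx6, a T-box factor that sets paraxial mesoderm fate, had 649, 680 and 693 against 57.8, 96.2 and 46.1 (3.35, SE 0.21, adjusted p = 8.68e-09). Msgn1, which acts with Tbx6, rose by 4.19 from a mean of 4.1 to 76.6. The Notch ligands Dll1 (2.52) and Dll3 (3.61) and the clock gene Lfng (2.21) rose, as did Rspo3 (5.12), a secreted enhancer of Wnt signalling. This list was already at a median of 2.57 at 120 h, with Tbx6 at 3.88.

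Somite genes rose at 13 of 15 tested members at 144 h, with a median of 1.58, against a median of -0.02 at 120 h. From 120 h to 144 h the difference changed upward at 11 of the 15 and downward at 0. Meox1, a homeobox factor of newly formed somites at chr11:101877510-101894374, had 18957, 13212 and 15232 normalized counts in p53KO-emiRFP cells and 2866, 2142 and 1961 in WT-emiRFP cells (2.77, SE 0.25, adjusted p = 3.35e-07). At 120 h its difference was 0.21 (adjusted p = 0.461), and the change of 2.56 was called (adjusted p = 8.48e-06). Uncx, a marker of the posterior part of each somite, had 1980, 1471 and 2065 against 167, 99.3 and 95.6 (3.93, SE 0.38, adjusted p = 6.02e-07), and changed by 3.57 since 120 h. Pax3, expressed in the dermomyotome and the dorsal neural tube, had 3809, 2690 and 3229 against 821, 438 and 637 (2.36, SE 0.29, adjusted p = 7.98e-06). For all 3 genes the groups were apart. Foxc2 (4.27), Foxc1 (3.32), Tcf15 (1.27) and Aldh1a2 (2.04) rose too. The exception that fell was Myog (-3.27), a muscle differentiation factor at 28.1 counts in WT-emiRFP and 2.8 in p53KO-emiRFP cells, and Myf5 was at 22.1 and 13.2 in p53KO-emiRFP and WT-emiRFP cells without a call (adjusted p = 0.288).

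The size of these differences depended on the WT cells taken. For WT-emiRFP over WT-mCherry cells of the same WT+WT gastruloids, the somite list had a median of -1.22. Not every member differed, with Tcf15 at -0.0074 (adjusted p = 0.984) and Myf5 without a call (adjusted p = 0.0992). Meox1 had a mean of 5403 in those WT-mCherry cells, against 2323 ± 479 in WT-emiRFP cells (-1.22, adjusted p = 0.00267). Against the WT-mCherry cells of their own gastruloids, p53KO-emiRFP cells were higher by 1.88 for Meox1 (adjusted p = 1.24e-05). Meox2, a second Meox factor, rose by 0.68 against WT-emiRFP cells (adjusted p = 0.0396), yet its mean of 257 in p53KO-emiRFP cells was below the 533 of WT-mCherry cells from WT+WT gastruloids. Against both WT populations of WT+WT gastruloids Meox2 was at -0.18. Its call also ended with single libraries left out, as without p53KO-emiRFP replicate 1 (adjusted p = 0.162).

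The Hox genes rose across all 4 clusters. All 12 genes of paralogues 1 to 4 and all 15 of paralogues 5 to 9 rose, at medians of 2.50 and 2.62, and of the 9 tested genes of paralogues 10 to 13, 6 rose and 1 fell. Hoxb4 had 1113, 963 and 1153 normalized counts in p53KO-emiRFP cells and 251, 212 and 160 in WT-emiRFP cells (2.38, SE 0.18, adjusted p = 5.59e-08). Hoxb9 had 11988, 10549 and 10004 against 2462, 1631 and 1483 (2.54, SE 0.18, adjusted p = 2.82e-08). Hoxc10, a trunk to tail Hox gene, had 1859, 1698 and 1980 against 143, 78.4 and 134 (3.95, SE 0.26, adjusted p = 1.7e-08). Hoxa10 rose by 3.18, Hoxa11 by 4.58 and Hoxd10 by 3.63. The groups did not overlap for these genes. Among the paralogue 13 genes the directions differed. Hoxc13 fell by 1.45, at means of 55.2 and 20.4 in WT-emiRFP and p53KO-emiRFP cells, Hoxa13 had 11 and 15.4 in p53KO-emiRFP and WT-emiRFP cells without a call (adjusted p = 0.261), and Hoxb13 rose by 1.17. Its difference against WT-mCherry cells of the same gastruloids was 0.44 without a call (adjusted p = 0.17).

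At 120 h the medians of the 3 Hox groups were 1.17, 1.24 and 0.68. The difference then changed upward at all 12 genes of paralogues 1 to 4, at all 15 of paralogues 5 to 9 and at 4 of the 9 of paralogues 10 to 13, where it changed downward at 1. Mean Hoxb9 went from 11393 to 10847 in p53KO-emiRFP cells and from 4128 to 1859 in WT-emiRFP cells. At this gene the difference thus grew while the p53KO-emiRFP counts did not rise. Hoxc10 went from 0.32 at 120 h (adjusted p = 0.522) to 3.95, and Hoxa10 from 0.68 to 3.18, a change of 2.50 (adjusted p = 0.000206). For WT-emiRFP over WT-mCherry cells of the same WT+WT gastruloids, the medians of the 3 Hox groups were -1.08, -1.29 and -0.73. For Hoxb9, WT-mCherry cells held 4984 counts on average in WT+WT and 3257 in WT+p53KO gastruloids, and p53KO-emiRFP cells stood 1.74 above the latter (adjusted p = 1.12e-06).

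**Figure D4:**
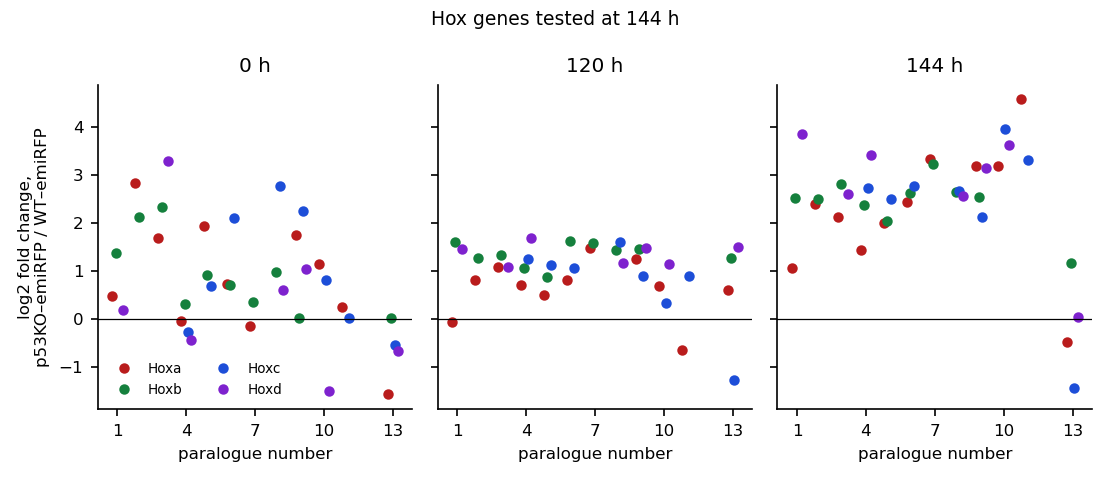
Log2 fold change of p53KO-emiRFP over WT-emiRFP cells for each Hox gene tested at 144 h, by paralogue number and cluster (colour), at 0 h, 120 h and 144 h. At 144 h all genes of paralogues 1 to 9 lie above 0 with group medians of 2.50 and 2.62.

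Of 20 tested genes of Wnt signalling, which acts along the posterior axis, 14 rose and 2 fell, Wnt3 (-0.76) and Notum (-0.35), with a median of 0.78. Wnt5a, a ligand of the non-canonical pathway at chr14:28504750-28527448, had 7524, 7476 and 7821 normalized counts in p53KO-emiRFP cells and 328, 211 and 250 in WT-emiRFP cells (4.85, SE 0.22, adjusted p = 6.74e-10). Its difference was 1.14 at 120 h, and the change of 3.71 was called (adjusted p = 1.3e-08). Kif26b, a kinesin family gene linked to non-canonical Wnt signalling, rose by 4.86. Sp5 (3.68), Axin2 (1.03) and Lef1 (0.90), which respond to canonical Wnt signals, rose as well. Axin2, a negative feedback gene, had 3776, 3403 and 3503 against 1911, 1750 and 1562 counts (SE 0.09, adjusted p = 1.83e-07).

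Of 19 genes of Fgf and ERK signalling 11 rose and 4 fell. Fgf18 (4.31) and Fgf3 (2.22), like Fgf8 above, rose, and Dusp6, a phosphatase induced by ERK, rose by 0.59. The 4 that fell were Fgf4 (-2.33), Fgfr4 (-1.10), Etv5 (-1.23) and Spry4 (-0.74). Against WT-mCherry cells of the same gastruloids Spry4 was higher instead, by 0.37 (adjusted p = 0.0196), and Notum was at 0.045 without a call (adjusted p = 0.767). Fgf4 is made by pluripotent cells and had 3750, 4190 and 5404 counts in WT-emiRFP and 675, 847 and 1134 in p53KO-emiRFP cells. For retinoic acid 8 of 14 genes rose and 2 fell, Aldh1a3 (-1.24) and Rarg (-0.42). Aldh1a2, which makes retinoic acid in somites, had 1519, 1361 and 1504 against 376, 334 and 355 (2.04, SE 0.13, adjusted p = 8.74e-09). Crabp2, a retinoic acid binding protein, rose by 2.14 and Rarb, a receptor gene that retinoic acid induces, by 0.92. Among the signals that set the end of axis growth, Gdf11 had 3560, 3468 and 3578 against 690, 502 and 536 (2.62, SE 0.17, adjusted p = 1.49e-08), and Lin28b, which prolongs posterior growth, rose by 1.57. Mnx1 (2.61) and Lin28a (0.16) rose and Tbx4 (-3.26), a hindlimb factor, fell.

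The neural lists were mixed. Of 20 genes of spinal cord and neurons 7 rose and 6 fell, with a median of 0.11 that was 0.046 without p53KO-emiRFP replicate 2, 0.26 without p53KO-emiRFP replicate 3 and 0.18 without WT-emiRFP replicate 2. The median was 0.52 against WT-mCherry cells of the same gastruloids, with 8 higher and 5 lower, and -0.21 against both WT populations of WT+WT gastruloids. The neural progenitor genes Sox1 (2.27), Irx3 (2.06) and Hes5 (2.34) rose. Sox1 had 1906, 2008 and 1638 counts in p53KO-emiRFP cells and 440, 373 and 335 in WT-emiRFP cells (SE 0.13, adjusted p = 4.63e-09). Sox2, shared by neural progenitors and pluripotent cells, fell by 1.03, from 15939 ± 1502 to 7811 ± 464 (SD, n = 3). The cytoskeletal genes Stmn2 (-2.85) and Tubb3 (-1.81), used as neuron markers, fell. Both were higher still in WT-emiRFP mES cells, with means of 25857 and 8085 counts. Elavl3, a neuronal RNA-binding protein, and Neurog2, a proneural factor, had no called difference (adjusted p = 0.961 and 0.632). Stmn2 had 3025, 3010 and 3299 in WT-emiRFP and 400, 435 and 462 in p53KO-emiRFP cells, and it was lower in p53KO-emiRFP mES cells too (-0.46, adjusted p = 0.00036). Of 13 tested neural crest and dorsal neural tube genes 6 rose, Zic1 (3.01) and Msx1 (2.67) the most, and 3 fell, Tfap2a (-0.96), Wnt1 (-0.81) and Tfap2b (-0.57), with a median of 0.21 that was 1.02 against WT-mCherry cells of the same gastruloids, where 8 were higher and 4 lower. Against WT-mCherry cells of the same gastruloids Tfap2b was higher by 0.78 (adjusted p = 0.00179), and Wnt1 was at 0.22 without a call (adjusted p = 0.543). Sox10, a defining neural crest marker, had means of 37.1 and 22.6 counts in WT-emiRFP and p53KO-emiRFP cells, a difference without a call (adjusted p = 0.0752) that was called with the replicate block (-0.74, adjusted p = 0.0185), without the low-count filter (adjusted p = 0.0352), against WT-mCherry cells of the same gastruloids (-0.88, adjusted p = 0.0324) and without p53KO-emiRFP replicate 2 (adjusted p = 0.0325) or WT-emiRFP replicate 3 (adjusted p = 0.0393). In mES cells at 0 h Sox10 already had means of 34.3 counts in WT-emiRFP and 56.9 in p53KO-emiRFP cells. Foxd3 was not tested, with at most 0.9 counts in a library.

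Genes of the intermediate mesoderm, from which the kidney forms, rose at 8 of 12 and fell at 2, Pax8 (-1.90) and Gata3 (-0.61). Lhx1 had 230, 257 and 193 counts in p53KO-emiRFP cells and 56, 57.5 and 23.5 in WT-emiRFP cells (2.32, SE 0.26, adjusted p = 2.82e-06), and Pax2 (2.25) and Osr1 (2.00) rose as well. In the endoderm list 10 of 15 tested members fell and 1 rose. The members that fell include the epithelial genes Cdh1, the gene of E-cadherin, and Epcam (-1.14). Sox17 and Foxa2, which define endoderm, had no called difference (adjusted p = 0.107 and 0.839). Sox17, at -0.80, was called with the replicate number as a block (adjusted p = 0.00318), without the low-count filter (adjusted p = 2.09e-06) and with the 6 compared (adjusted p = 0.0104) or all 69 libraries (adjusted p = 0.0344) in the fit, and against both WT populations of WT+WT gastruloids it was called at -0.92 (adjusted p = 0.0416). Both were lower with a call against WT-mCherry cells of the same gastruloids, Sox17 at -2.24 (adjusted p = 0.000277) and Foxa2 at -1.32 (adjusted p = 0.0296). Cdh1 had 16088, 18848 and 18970 counts in WT-emiRFP and 4937, 7281 and 6860 in p53KO-emiRFP cells, while Cdh2, the gene of N-cadherin, had 3734, 2499 and 2875 in WT-emiRFP and 14827, 14012 and 13270 in p53KO-emiRFP cells (2.21, SE 0.16, adjusted p = 4.15e-08). Zeb2 (2.46) and Twist1 (1.57), transcription factors of the epithelial to mesenchymal transition, rose.

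Lateral plate and cardiac genes fell at 10 of 19 and rose at 4, Foxf1 (2.57), Actc1 (2.34), Prrx1 (1.54) and Isl1 (0.87). Isl1 lost its call with single libraries left out, as without WT-emiRFP replicate 3 (adjusted p = 0.124), where 3 members rose. Hand1 fell from a mean of 131 to 21.8, and Gata4 by 1.20 (SE 0.40, adjusted p = 0.0171), with its WT-emiRFP libraries at 439, 712 and 333 counts. WT-mCherry cells of WT+p53KO gastruloids had 969 counts of Gata4 on average, more than any WT-emiRFP library. Haematoendothelial genes fell at 13 of 22 tested members and rose at 3, Hba-x (3.55), Fli1 (1.19) and Lmo2 (1.14). The median was -0.80, and against WT-mCherry cells of the same gastruloids it was -0.28, with 9 lower and 6 higher. Kdr, a vascular receptor, had 563, 494 and 662 counts in p53KO-emiRFP and 713, 637 and 658 in WT-emiRFP cells, groups that overlapped (-0.22, adjusted p = 0.17). Against WT-mCherry cells of the same gastruloids it was higher by 0.64 (adjusted p = 0.00129), and against both WT populations of WT+WT gastruloids it was lower, at -0.44 (adjusted p = 0.00579). At 120 h Kdr was at -2.98, and this difference changed by 2.76 (adjusted p = 2.83e-07). Pecam1, an adhesion molecule of endothelium that mES cells also express, fell by 2.57 and Tek, an angiopoietin receptor, by 2.45. In bulk samples fewer cells of a type and less RNA per cell cannot be told apart.

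Pluripotency genes were lower in p53KO-emiRFP cells, where 15 of 16 fell, 14 of them at least 2-fold, and 1 rose, Lin28a (0.16). The median was -2.31. Nanog, a core pluripotency factor at chr6:122707489-122714633, had 20994, 23807 and 24983 normalized counts in WT-emiRFP cells and 3180, 3774 and 4819 in p53KO-emiRFP cells (-2.57, SE 0.12, adjusted p = 9.92e-10). Pou5f1, the gene of Oct4, had 13717, 13304 and 13524 against 2191, 2484 and 3109 (-2.38, SE 0.10, adjusted p = 4.57e-10). Zfp42, a gene of naive mES cells, had 19736, 18665 and 22251 against 2599, 3075 and 3930 (-2.66, SE 0.13, adjusted p = 1.02e-09). Every p53KO-emiRFP library was below every WT-emiRFP library in these 3 genes. Dppa5a (-2.51) and Utf1 (-2.64), also of mES cells, fell, and so did Fgf5 (-2.47), a gene of the primed epiblast. Against WT-mCherry cells of the same gastruloids Fgf5 was at -0.62 without a call (adjusted p = 0.112).

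The mES cells differed far less. At 0 h the median of the pluripotency list was -0.18, with Nanog at -0.42 (adjusted p = 0.0112) and Pou5f1 at -0.19 (adjusted p = 0.281). The changes from 0 h to 144 h were -2.14 for Nanog (adjusted p = 5.05e-10) and -2.19 for Pou5f1 (adjusted p = 1.67e-10). Of the 16 genes 15 changed downward from 0 h and 0 upward, where 24.3% of 20209 genes changed downward and 22.2% upward. WT-emiRFP mES cells held 39189 ± 2096 counts of Nanog (SD, n = 3), and the level was lowest at 48 h with 3125 ± 23.1. It then stood at 11341 ± 898 after 72 h, 6863 ± 532 after 96 h, 17682 ± 777 after 120 h and 23262 ± 2050 after 144 h. The p53KO-emiRFP cells went from 2306 ± 88.4 after 48 h to 10561 ± 695 after 72 h, where the 2 clones were close together, then to 3140 ± 242 after 96 h and 2514 ± 120 after 120 h, and ended at 3924 ± 830. The WT-mCherry cells held 16868 on average in WT+WT and 17339 in WT+p53KO gastruloids at 144 h, so that all 3 WT populations were above the p53KO-emiRFP cells. WT-emiRFP cells were above WT-mCherry cells of their gastruloids by 0.46 (adjusted p = 0.0105).

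All 10 genes of the primordial germ cell list fell, with a median of -1.91. WT-emiRFP mES cells at 0 h also held means of 135 counts of Nanos3 and 1439 of Prdm1. Prdm14, a factor of germ cells and naive pluripotency, had 1133, 1119 and 1242 counts in WT-emiRFP cells and 128, 125 and 182 in p53KO-emiRFP cells (-3.00, SE 0.13, adjusted p = 5.27e-10). Nanos3 fell from a mean of 154 ± 4.7 to 32.1 ± 8.5 (SD, n = 3) and Prdm1 from 1746 ± 154 to 918 ± 101. Tfap2c fell by 2.21 and Dazl by 2.58. At 0 h the median was -0.15.

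Among the 10 largest named falls, 5 were members of the Zscan4 family, which marks a rare state of mES cells that resembles the early embryo. Zscan4c had 1304, 815 and 996 normalized counts in WT-emiRFP cells and 31.9, 43.1 and 56.3 in p53KO-emiRFP cells (-4.58, SE 0.25, adjusted p = 3.03e-09). Zscan4e (-4.58), Zscan4f (-4.55), Zscan4-ps2 (-4.59) and Zscan4-ps3 (-4.83) fell alike. Pramef25 (-5.23), Tmem92 (-4.67) and Eif4a3l1 (-4.56) also fell. The Zscan4, Pramef and Eif4a3l genes have near-identical copies, for which counting of uniquely aligned reads can drop reads, so the value of a single copy is uncertain. The Zscan4c difference was -4.43 at 120 h and -0.97 at 0 h (adjusted p = 0.00496). Eda2r and Inpp5d, a phosphoinositide phosphatase gene of blood cells, completed the 10. Inpp5d had 10043, 10494 and 10622 against 395, 382 and 555 counts (-4.55, SE 0.11, adjusted p = 8.08e-12) and was lower at 0 h too (-2.38). The largest falls and rises leave out predicted genes (Gm and Rik names) and genes annotated as pseudogenes, which Zscan4-ps2 and Zscan4-ps3 are not despite their names. Among those left out, Gm45889 (6.18), named after its values were seen, was above Hes7. Of the 10 largest rises, Hes7, Rspo3, Cdx4, Cdx2, Wnt5a and Kif26b are given above. The other 4 were Cer1 (5.93), a secreted antagonist of Nodal and BMP that is also expressed in nascent somites, Acta2 (5.30), smooth muscle actin, Foxb1 (4.71), a forkhead factor, and Mgam (4.72), an intestinal glucosidase. Cer1 had 450, 357 and 368 counts in p53KO-emiRFP cells and 2.8, 10.5 and 6.1 in WT-emiRFP cells.

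Cell cycle lists split in direction against WT-emiRFP cells. Of 25 genes of replication and G1/S 8 rose and 9 fell, and of 22 genes of mitosis 5 rose and 8 fell, with medians of 0.05 and -0.05. The replication list did not split evenly against WT-mCherry cells of the same gastruloids, with 17 of 25 higher, 3 lower and a median of 0.23. The largest differences were those of Ccnd1 and Ccnd2, D-type cyclins that drive entry into the cycle. Ccnd1 had 10445, 10517 and 10128 normalized counts in p53KO-emiRFP cells and 3208, 2827 and 2785 in WT-emiRFP cells (1.82, SE 0.09, adjusted p = 1.22e-09), and Ccnd2 had 26071, 25981 and 20746 against 7277, 5477 and 5151 (2.02, SE 0.16, adjusted p = 1.09e-07). The 5 mitotic genes that rose were Mki67 (0.43), Nusap1 (0.32), Cenpe (0.26), Cenpf (0.26) and Tpx2 (0.20), while Cdk1 fell by 0.30. Cenpf was not called with all 69 libraries in the fit (adjusted p = 0.0535). Cenpe was not called against WT-mCherry cells of the same gastruloids (adjusted p = 0.101). The inhibitors of cyclin-dependent kinases went both ways. Beside Cdkn1a, Cdkn2b (-1.81) and Cdkn2a (-0.48) fell, and Cdkn1c (1.66), Cdkn1b (1.00) and Cdkn2c (0.43) rose. Cdkn1c, which encodes p57 and is imprinted, had 4375, 4133 and 3974 against 1377, 1264 and 1301 (SE 0.15, adjusted p = 4.29e-07). Against WT-mCherry cells of the same gastruloids, with a mean of 828, Cdkn2a at 863 ± 36.2 (SD, n = 3) showed no called difference (0.06, adjusted p = 0.579).

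Of 28 genes of the Myc network and ribosome biogenesis 18 fell, by a median of -0.19 over the list, and 3 rose, Mxd4 (1.57), Mycl (1.40) and Myc (0.74). The list had 11 lower, 6 higher and a median of -0.071 against WT-mCherry cells of the same gastruloids. Myc had 2658, 2343 and 2400 counts in p53KO-emiRFP and 1634, 1334 and 1474 in WT-emiRFP cells (SE 0.11, adjusted p = 5.17e-05), and its mean in WT-mCherry cells from WT+WT gastruloids was 2402. Ncl, the gene of nucleolin, fell by 0.35. Of 25 genes of glycolysis and hypoxia 13 fell and 4 rose, Ldha (0.47), Vegfa (0.32), Tpi1 (0.27) and Slc2a1 (0.25). Pfkp, a phosphofructokinase, fell by 1.31 and Hk2, a hexokinase, by 0.58. Cholesterol synthesis genes rose at 9 of 20 and fell at 3, among them Fdft1 (-0.42) and Insig1 (-0.24). In the integrated stress response list 5 of 16 rose, Vldlr (1.69), Slc7a11 (0.67), Phgdh (0.62), Psat1 (0.58) and Atf3 (0.52), and 7 fell, among them the p53 target Sesn2 (-0.87). Collagen and matrix genes rose at 5 of 19 tested, Fbn2 (2.83), Col11a1 (1.74), Col2a1 (1.43), Col5a1 (1.02) and Col1a1 (0.83), and fell at 4, Col18a1 (-0.98), Col5a2 (-0.84), Col3a1 (-0.68) and Fn1 (-0.55), and with the replicate block 8 rose. Taken against WT-mCherry cells of the same gastruloids, the list had 6 higher and 6 lower, and its median was -0.11 in place of 0.27. Without WT-emiRFP replicate 2 the median was 0.61 and without WT-emiRFP replicate 3 it was 0.083. Antigen presentation and interferon genes rose at 5 of 19 tested, among them Ifih1 (0.94), H2-D1 (0.88), B2m (0.79) and H2-K1 (0.76), and fell at 8, with Bst2 (-1.67), Oas1a (-1.63) and Irf1 (-1.21) as the furthest. Neither H2-D1 (0.41, adjusted p = 0.0726) nor H2-K1 (0.22, adjusted p = 0.365) was called against WT-mCherry cells of the same gastruloids.

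Imprinted genes, which are expressed from 1 parental copy, rose at 13 of 24 tested and fell at 7, with a median of 0.55. The median was 0.18 against WT-mCherry cells of the same gastruloids, with 11 higher and 8 lower, and 0.19 against both WT populations of WT+WT gastruloids. Among these genes Grb10 and H19 also differed between the WT clones, where 23.8% of all genes tested were called. The list median was -0.64 for WT-emiRFP over WT-mCherry cells of WT+WT gastruloids. Grb10, an adaptor of insulin signalling, had 55496, 51813 and 50756 normalized counts in p53KO-emiRFP cells and 10374, 9920 and 9877 in WT-emiRFP cells (2.39, SE 0.34, adjusted p = 3.05e-05). It had a mean of 1387 in WT-mCherry cells from WT+WT gastruloids, so that the WT clones differed by 2.86 (adjusted p = 0.00015). H19, a maternally expressed non-coding RNA, had 8118, 7243 and 6181 in WT-emiRFP, 1875, 2101 and 1697 in p53KO-emiRFP cells and a mean of 47000 in WT-mCherry cells from WT+WT gastruloids. Its fall of 1.92 between the emiRFP clones was smaller than the difference of the WT clones (-2.71, adjusted p = 9.97e-08).

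**Figure D5:**
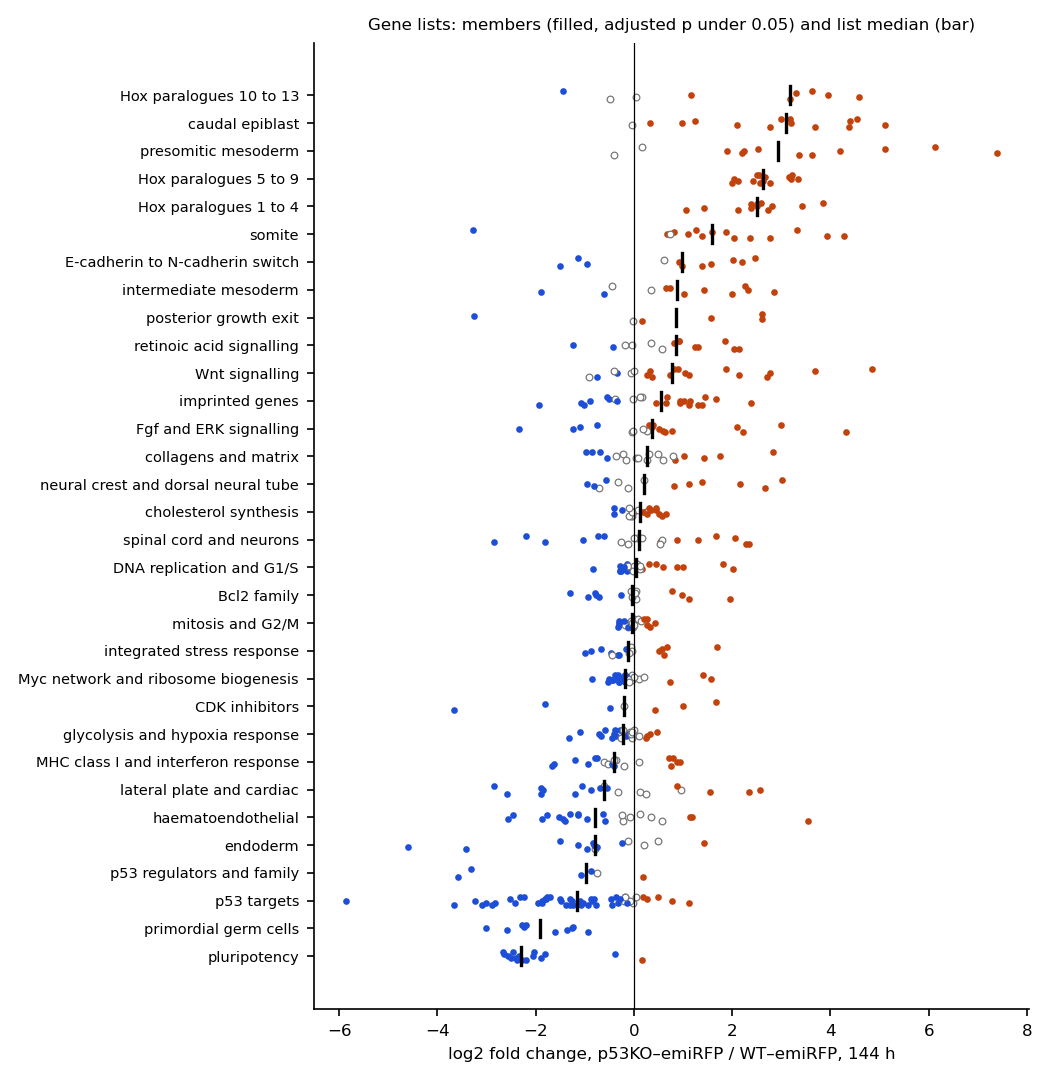
Log2 fold change of p53KO-emiRFP over WT-emiRFP cells at 144 h for the members of each gene list, filled where the adjusted p was under 0.05, with a bar at the list median, lists ordered by median. Hox, caudal epiblast and presomitic mesoderm lists are at the top, with medians of 2.50 to 3.18, and p53 targets, primordial germ cell and pluripotency genes at the bottom, from -1.16 to -2.31.

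Set against the earlier times, 8805 genes were called at both 144 h and 120 h, 69.5% of the calls at 144 h and 86.4% of those at 120 h, and 8622 of these had the same direction. Of the calls at 144 h, 1439 (11.4%) had been called at 0 h, which are 79.2% of the calls at 0 h, with 980 in the same direction. The 2195 genes that were at least 2-fold higher had a median of 1.52 at 144 h, 0.75 at 120 h and 0.10 at 0 h. The 3121 that were at least 2-fold lower had medians of -1.87, -1.53 and -0.11. These genes were chosen by their value at 144 h, so the medians at the other times are a description. The change of the difference from 120 h to 144 h was called at 3295 genes, at 1067 without replicate 1, 2369 without replicate 2 and 1990 without replicate 3. With the replicate number as a block within each time it was called at 5581. The most upward were Fmod, a matrix proteoglycan, Cer1, Foxd2, a forkhead factor, Cd36, a fatty acid transporter, and Stum. Foxd2 had a difference of -1.34 at 120 h and of 3.08 at 144 h, with 1096, 811 and 1096 counts in p53KO-emiRFP cells against 165, 93.1 and 95.6. The most downward were Nfam1, Adgrd1, Phlda2, an imprinted gene, Rnf213, a ubiquitin ligase, and Ryr3, a calcium channel. Nfam1 turned from 1.85 at 120 h to -1.06 at 144 h, and Phlda2 from 1.54 to -1.02.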

How the data were processed

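RNA was sequenced from sorted cells of pooled gastruloids, and the purity after sorting was not checked, per the study's methods. The deposited values are raw counts per gene. The authors trimmed the reads (Trim Galore 0.6.7), aligned them to GRCm38.p6 with STAR 2.7.11b and counted uniquely mapped reads, so copies of near-identical genes are undercounted. The strand setting of the counts is not given in the sources used here, so overlapping genes are uncertain.

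Each library was scaled by its median ratio to the geometric mean of the 69 libraries, as in the study. The 12 libraries of 144 h were fitted with edgeR 4.0.16 (R 4.3.3, limma 3.58.1; quasi-likelihood test, filterByExpr by group), with Benjamini-Hochberg adjustment over all genes tested and a threshold of 0.05. Changes from 120 h and 0 h were interaction terms over 24 and 21 libraries. These fits had no replicate block. Tests between populations sorted from the same gastruloids therefore did not use their pairing, and a block was not run for them. The SE is the log2 fold change over the square root of F. All columns of the table matched a sample. The 34 gene lists (546 genes) and the compared groups were chosen with earlier results of these data known.

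Named genes are Trp53, the 10 largest rises and falls (at least 200 normalized counts in the higher group, groups not overlapping, predicted genes left out by name and pseudogenes by annotated type), key members of each list with up to 3 further ones (at least 100 counts), and 5 genes per direction of the change from 120 h. Locations are those of GRCm38 and promoters those of RefSeq (GRCm38.p6).

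Same-numbered libraries of the 2 groups deviated together from their group means at 144 h, with correlations of 0.21 to 0.38 in 3 of 3 pairs. Other pairs had -0.27 to 0.02, but deviations from a mean of 3 libraries cancel, so these values follow in part from the former. With 120 h or 0 h added, 6 of 6 same-numbered pairs of one time were above 0.1, which includes the 3 pairs of 144 h each time. Between times 8 of 12 (120 h and 144 h) and 3 of 12 (0 h and 144 h) were. The numbers come from the labels. The study's methods give the 3 replicates as temporally separate experiments, and whether a number marks one experiment in both groups is not given in the sources used here.

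Simulated counts with 200 altered genes served as a test of the code. Every gene was given the same spread, low-count genes were not altered, and libraries shared no effect of an experiment. All other genes were equal in all groups. The real libraries differ in these points, so the recovery below does not give the error rate of the reported calls. For the difference at 144 h, 100 of 100 genes were recovered at a log2 change of 1 and 8 of 18937 unchanged genes were called. The change from 120 h recovered 92 of 100 at a log2 change of 1, and that from 0 h 91. Alternatives were TMM, no low-count filter, the replicate block (within each time added after seeing the data), DESeq2 1.42.0, other libraries in the fit, other WT references, a minimum change and each library left out. All replicates were grown from the same clones, so the p values do not cover a spread between clones. A few members of the gene lists are not reported here by name.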

Additional observations from a re-analysis of the deposited data

Results flagged for a closer look

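The genes here were marked because the p53KO-emiRFP against WT-emiRFP difference at 144 h was not the one at an earlier time, by a test of that change itself. From 120 h to 144 h the log2 difference changed at 3295 of 19982 genes, and from the mES cells at 0 h at 9392 of 20209. Without replicate 1, 2 or 3 the former count was 1067, 2369 or 1990, and without replicate 2 the latter was 6208. With the replicate number as a block within each time they were 5581 and 10643. Groups of 3 libraries were too small for the check of single libraries that stand apart.

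From 120 h the difference turned or grew upward at Fmod by 4.94, Cer1 by 4.92, Foxd2 by 4.42, Cd36 by 4.19 and Stum by 3.77, with adjusted p values of at most 3.26e-05. It changed downward at Nfam1 by -2.92, Adgrd1 by -2.79, Phlda2 by -2.56, Rnf213 by -2.34 and Ryr3 by -2.21, with adjusted p values of at most 1.95e-05. At Rnf213 the p53KO-emiRFP mean at 120 h was 9676 normalized counts against 2410 in WT-emiRFP cells, and at 144 h its libraries held 2123, 2655 and 3168 against 3135, 3222 and 3677. An upward change of the difference is not always a rise in p53KO-emiRFP cells. Mean Cer1 went from 635 to 391 in p53KO-emiRFP and from 316 to 6.4 in WT-emiRFP cells. Mean Foxd2 went from 151 to 1001 in p53KO-emiRFP and from 381 to 118 in WT-emiRFP cells.

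Among the lineage genes the upward changes from 120 h were 2.82 at Cdx2, 1.58 at T, 3.71 at Wnt5a, 2.56 at Meox1, 2.59 at Pax3, 3.57 at Uncx, 3.63 at Hoxc10, 2.5 at Hoxa10 and 2.76 at Kdr, with adjusted p values of at most 0.000206. Kdr thereby went from a called difference at 120 h (-2.98) to one without a call at 144 h (-0.22). At Cdkn1a the change from 120 h was -0.98 (adjusted p = 0.00049).

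From 0 h the changes were -2.14 at Nanog, -2.19 at Pou5f1, 3.79 at T, -1.49 at Cdkn1a and 2.76 at Meox1, with adjusted p values of at most 4.1e-05. T had only 42.5 and 63.6 normalized counts on average in WT-emiRFP and p53KO-emiRFP mES cells.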

How the results depend on the processing

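The genes called at 144 h numbered 12675, and 11753 to 12200 with each library left out, 12686 with TMM scaling, 13316 without the low-count filter, 12401 with DESeq2, 12545 with the 6 compared libraries and 13356 with all 69, and 5316 with an absolute log2 fold change of at least 1. The replicate block gave 13689, and among named genes it added calls at Sox10, Sox17 and Rnf213 (-0.35, adjusted p = 0.00277) and ended none. For the change from 120 h a block shared by both times gave 5126 calls against 3295, and for that from 0 h 10120 against 9392. Same-numbered samples deviated together within each time but not in every case between times. The block was therefore also set within each time, an alternative chosen after seeing the data, which gave 5581 and 10643. Leaving out a replicate gave 1067 to 2369 calls for the change from 120 h, lowest without replicate 1 and 1990 without replicate 3, and 6208 to 8254 for that from 0 h, lowest without replicate 2. The WT reference had the widest effect on direction. With WT-mCherry cells of the same gastruloids as reference 12473 genes were called, the median of the integrated stress response list turned from -0.13 to 0.125, that of collagens and matrix from 0.27 to -0.11, of CDK inhibitors from -0.21 to 0.06 and of mitosis from -0.05 to 0.01, those of retinoic acid (0.38), Hox paralogues 1 to 4 (1.63) and 10 to 13 (2.06) and interferon genes (-0.25) shrank over 1.5 times and that of the Bcl2 family grew to -0.10, and the log2 fold change was 0.06 at Cdkn2a, 0.64 at Kdr, 0.045 at Notum, 0.37 at Spry4, 0.78 at Tfap2b, 0.22 at Wnt1, 0.0003 at Elavl3 and 0.24 at Neurog2. Calls were also lost at Aldh1a3, Atf3, Cdkn2c, Cenpe, Col3a1, Sesn1, Tpi1 and Vegfa, and at those given as lost beside their results above. H2bc14, the middle member of the emiRFP clone histone list, stood at 3.39, and at 2.84 with both WT populations of WT+WT as reference, where 12647 genes were called, Meox2 was at -0.18, Cdkn2a, Col1a1, Notum and Sesn1 lost their call and the spinal cord and neuron list turned from 0.11 to -0.21, while the medians of lateral plate (-0.34), CDK inhibitors (-0.11), glycolysis (-0.10), integrated stress response (-0.022), collagens (0.15), interferon (-0.26) and cadherin switch genes (0.64) shrank over 1.5 times. With each library left out, Foxa2 ranged from -0.63 to 0.15, Elavl3 from -0.0958 to 0.0629 and Neurog2 from -0.65 to 0.15, all without a call in the comparison as reported. Of the 191 named genes with a call, 175 kept it and its direction under every alternative run other than the WT references, and 163 under all. Leaving out single libraries ended the call at 15, which were Sesn1 with 5 of the 6 libraries, Atf3, Cenpf, Isl1, Lin28a, Meox2, Ppm1d and Slc2a1 with 4, Ddb2 and Wnt1 with 3, Cdkn2c, Gata4 and Notum with 2 and Aldh1a3 and Col3a1 without WT-emiRFP replicate 2. The p53 targets that rose were 3 in place of 5 without p53KO-emiRFP replicate 3 or WT-emiRFP replicate 2, and the mitotic genes that fell 5 in place of 8 without the latter, where the median of the replication list was 0.018 (0.083 without WT-emiRFP replicate 3). The causes were not tested.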

Other observations

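The differences were spread over the genome. The median log2 fold change by chromosome was between -0.07 (chromosome 15) and 0.12 (chromosome 18) at 144 h over the autosomes and the X chromosome, and between -0.03 (chromosome 19) and 0.04 (X chromosome) between the same clones as mES cells at 0 h. Of the 463 tested genes of chromosome 18, 42.5% rose and 27.6% fell at 144 h, and of the 1555 of chromosome 7, 29.3% rose and 35.2% fell, against 33.2% and 32.2% over all genes tested.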
